A study of Sus scrofa with 9 samples.

Results

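Levels of TXNIP and of 9 genes of the alpha-arrestin, insulin and FOXO pathways were followed in porcine valvular interstitial cells (PVICs), the fibroblast-like cells that maintain the aortic valve. The 10 genes were TXNIP, ARRDC4, ARRDC3, MLXIP, IRS1, IRS2, FOXO1, FOXO3, KLF15 and PIK3IP1. They were chosen by symbol from the 19535 genes of the count table, after TXNIP had been seen to be far lower in osteogenic medium than in control cells, to ask whether that fall was shared by genes of the same pathways. Values for osteogenic medium against control are therefore a description, with no p-value given and no test result read from them. All 10 genes had enough counts to be among the 13662 genes tested.

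The cells were wild-type primary cultures from aortic valve leaflets of pigs aged 4 to 5 months, from which the surface endothelium had been scraped. Control cells were kept in DMEM. OIM cells were kept in osteogenic medium, which added insulin (1e-07 mol/L), ascorbic acid (50 µg/mL) and sodium dihydrogen phosphate (2 mmol/L). The bFGF cells had the same OIM with 50 ng/mL basic fibroblast growth factor, so both treated groups received the added insulin and bFGF was never given without OIM. Treatment lasted 3 days per the labels, whereas the study's methods give a shorter time, and RNA of 3 libraries per group was sequenced. No source used here says whether the libraries of a group came from separate animals or cultures, so p-values measure the spread between these libraries, which may be technical.

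TXNIP (thioredoxin-interacting protein) and its relatives ARRDC4 and ARRDC3 are alpha-arrestins, adaptors that bring ubiquitin ligases to membrane proteins. TXNIP also binds thioredoxin and, like ARRDC4, lowers glucose uptake by drawing glucose transporters from the cell surface. Both are classic targets of MondoA, the product of MLXIP, a factor that enters the nucleus when glucose 6-phosphate accumulates and binds carbohydrate response elements, which are paired E-box-like sequences. Insulin acts through IRS1 and IRS2, the adaptors below the insulin receptor, to PI3-kinase and AKT. AKT phosphorylates FOXO1 and FOXO3 and keeps these transcription factors out of the nucleus, and IRS2 is among the genes that FOXO factors induce. PIK3IP1 restrains PI3-kinase at the membrane, and KLF15 is a metabolic transcription factor that glucocorticoids induce.

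The promoters of TXNIP, ARRDC4 and FOXO3 are shown because TXNIP and ARRDC4 had the largest differences of the alpha-arrestins among the 10 genes and FOXO3 is the FOXO gene with the most matches to the letters searched. Each window runs from 250 bases before to 50 bases after the annotated start of the gene in the pig genome (RefSeq annotation of Sscrofa11.1), is 300 bases long and is written 5′ to 3′ on the strand of the gene. Capitals mark CACGTG, a pair of CACGNG set 5 bases apart and GTAAACA (the core that forkhead factors such as FOXO prefer). The pair is a strict form of a carbohydrate response element, and looser forms were not searched.
TXNIP, chr4:99348339-99348638, plus strand: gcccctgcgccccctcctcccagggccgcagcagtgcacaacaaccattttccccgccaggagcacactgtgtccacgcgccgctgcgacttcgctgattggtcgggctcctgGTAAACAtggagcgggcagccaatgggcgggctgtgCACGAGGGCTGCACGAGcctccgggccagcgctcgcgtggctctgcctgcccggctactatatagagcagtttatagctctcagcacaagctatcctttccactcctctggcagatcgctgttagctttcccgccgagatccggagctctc
ARRDC4, chr7:81669535-81669834, minus strand: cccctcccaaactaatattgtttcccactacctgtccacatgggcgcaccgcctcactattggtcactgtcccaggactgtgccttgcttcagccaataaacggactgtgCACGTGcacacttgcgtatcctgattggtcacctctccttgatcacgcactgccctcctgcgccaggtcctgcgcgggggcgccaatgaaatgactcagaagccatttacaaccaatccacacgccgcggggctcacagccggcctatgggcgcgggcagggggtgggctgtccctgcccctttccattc
FOXO3, chr1:74626423-74626722, plus strand: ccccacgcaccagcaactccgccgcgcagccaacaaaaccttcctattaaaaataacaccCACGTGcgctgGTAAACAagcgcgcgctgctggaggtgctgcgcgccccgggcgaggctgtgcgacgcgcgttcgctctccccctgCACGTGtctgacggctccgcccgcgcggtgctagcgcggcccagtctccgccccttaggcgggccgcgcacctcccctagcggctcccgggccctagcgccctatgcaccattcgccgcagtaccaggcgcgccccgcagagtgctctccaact

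The TXNIP window held the paired CACGNG from base -101 to -85 and GTAAACA from -137 to -131, counted from the gene start. Among 19556 promoter windows of the same length, searched on both strands, 11 (0.0562%) held this strict form of the pair and 518 (2.65%) held GTAAACA. The ARRDC4 window had no such pair and held 1 CACGTG, from -140 to -135, which 7.92% of all windows held. Looser forms were not searched, so this does not show that ARRDC4 lacks a carbohydrate response element. FOXO3 held 2 copies of CACGTG, starting at -190 and -104, and 1 GTAAACA, starting at -179. KLF15 held 1 CACGTG, starting at -12. TGTTTTG, another forkhead sequence, was in none of the 10 windows and in 4.80% of all. CCAAT, which 35.4% of all windows held, occurred 5 times in ARRDC4, 2 times in TXNIP and 1 time each in ARRDC3, MLXIP and KLF15. The windows of IRS1, IRS2, FOXO1 and PIK3IP1 held none of these letters. A match describes the sequence and does not show that a factor binds there.

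Of the 11 genes with the paired CACGNG in this window, 9 were tested. Besides TXNIP, LIPA, which encodes lysosomal acid lipase, was past the limits of a call in OIM against control, with a log2 fold change of -0.53. That makes 2 of the 9, beside 0.864% of all genes tested, in the contrast on which TXNIP was chosen, and nothing is read from it. Of the 9, 0 were called lower in bFGF than in OIM, and 2 (RAD17 and TRAPPC6A) rose, with log2 fold changes of 0.56 and 1.496, where 18.4% of all genes tested were called lower and 17.7% higher. These 3 genes were chosen after their values had been seen.

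The bFGF libraries held 46773376 to 48270827 counts on genes and the other libraries 57075793 to 67371523. The 10 most abundant genes took 8.35% to 8.45% of them in bFGF and 12.7% to 13.7% in the others. OIM replicate 2 stood farthest from its group, with a mean chi-square per gene of up to 19.1 against the other OIM libraries, where pairs of replicates without it had 4.69 to 11.6. Control replicate 2 was the farthest of the controls, with 11.6 and 8.67 against the other control libraries, which had 5.66 between them. Levels below are CPM, counts scaled to a common library size, here after TMM normalization. A call is an adjusted p of at most 0.05 with a log2 fold change of at least 0.5 in size, from edgeR's quasi-likelihood test over all genes tested. Scaling by library totals alone raised the median of all genes by 0.22 on the log2 scale in both bFGF comparisons.

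All 10 fibroblast markers were measured, and their summed level was 64867 to 70275 CPM in the control libraries, 61460 to 64366 CPM in OIM and 37602 to 37956 CPM in bFGF. COL1A1, COL1A2 and COL3A1 carry most of that sum. In bFGF against OIM these collagens and DCN were called lower, VIM (log2 fold change 0.66) and S100A4 (0.82) were called higher, LUM, PDGFRB, PDGFRA and THY1 were not called, and the median of the list was -0.23. The 10 endothelial markers summed to 73.9 to 76.7 CPM in control, 88.2 to 90.9 CPM in OIM and 171 to 181 CPM in bFGF. In bFGF against OIM 7 of the 10 were called higher and 0 lower, beside 17.7% and 18.4% of all genes tested. The 7 became 5 without OIM replicate 3, and 6 without OIM replicate 2, bFGF replicate 1 or bFGF replicate 3. Most of the sum was ERG, at 134 to 143 CPM in bFGF. PECAM1 was there at 19.6 to 21.7 CPM and CDH5 at 7.42 to 8.98 CPM, both called higher, CDH5 just past the limit with a log2 fold change of 0.507. KDR was also called higher and reached at most 1.46 CPM, and VWF, at most 0.288 CPM, was not called. Leukocyte markers summed to 15.1 to 18.4 CPM in control and OIM and to at most 9.86 CPM in bFGF, with CD3E at 0. Most of that sum was CD14, at 11.7 to 14.85 CPM in control, 12.9 to 13.9 CPM in OIM and 7.11 to 8.04 CPM in bFGF. PTPRC was at most 0.553 CPM in any library. Cardiomyocyte markers summed to 8.10 to 9.78 CPM in control, 11.5 to 14.2 CPM in OIM and 6.69 to 8.48 CPM in bFGF, with RYR2 past the limits of a call in OIM against control (log2 fold change 0.81) and with TNNT2, NPPA and NKX2-5 at 0. In RNA from whole cultures, fewer cells of a type and less RNA per cell cannot be told apart. The fibroblast, endothelial and cardiomyocyte sums of control and OIM did not overlap. In OIM against control 0 of the 10 endothelial markers were past the limits of a call, where 0.864% of all genes were lower and 1.49% higher. Their median log2 fold change was -0.028, and the higher sum was that of ERG (0.37), while PECAM1 was at -0.12 and CDH5 at -0.022. RYR2 was the single one of the 5 tested cardiomyocyte markers past the limits, where 1.49% of all genes were higher, and the median of the list was 0.077. These sums differ in the contrast of the TXNIP fall and with bFGF, as the library totals do with bFGF, and their part in the results below was not tested.

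**Figure D1:**
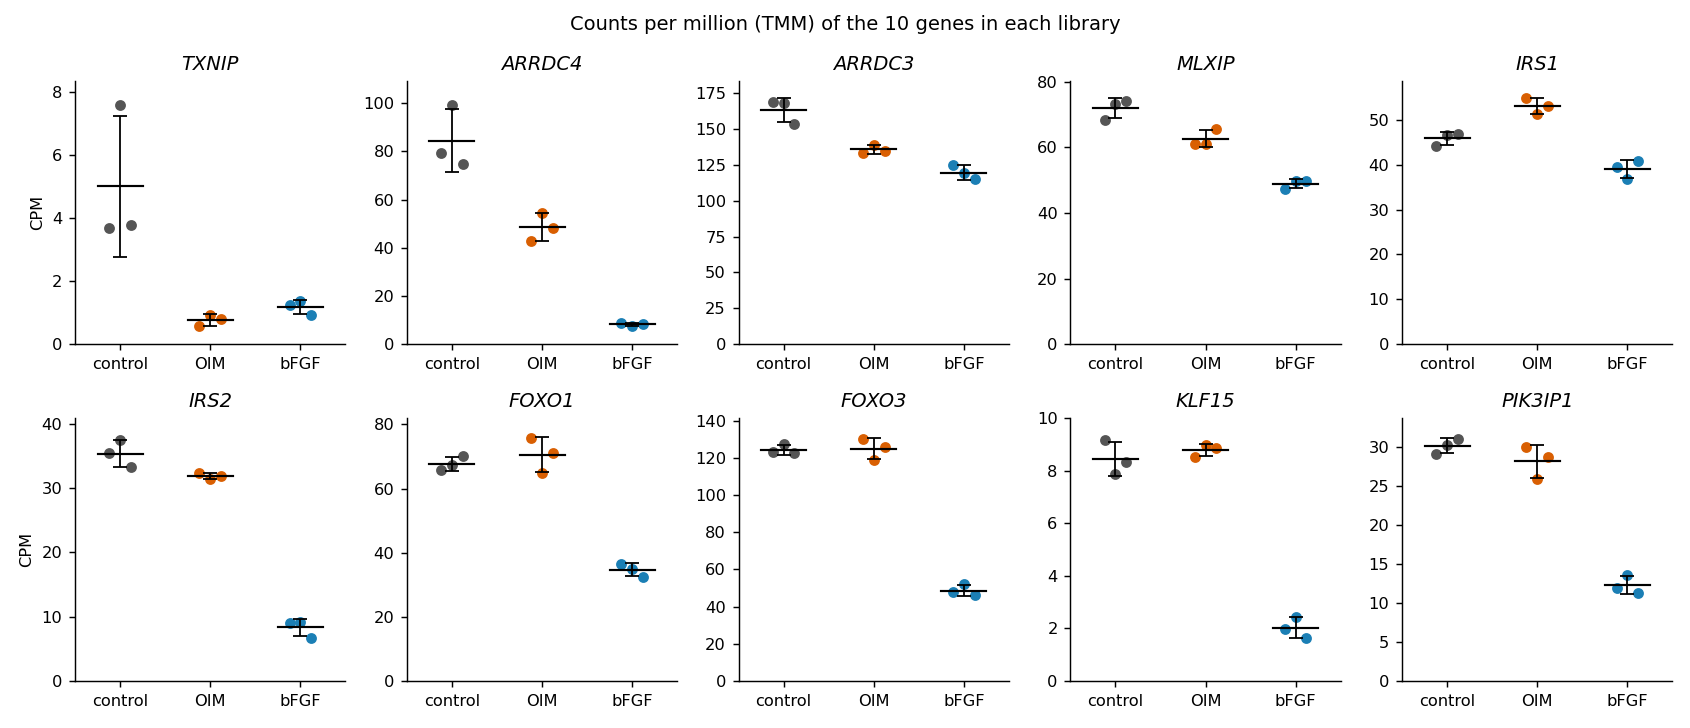
Level of each of the 10 genes in CPM (vertical axes, linear and starting at 0) in the control, OIM and bFGF libraries. Points are single libraries, and lines with bars are the mean and SD of 3. TXNIP was low in both treated groups, whereas ARRDC4, IRS2, FOXO1, FOXO3, KLF15 and PIK3IP1 were lowest in bFGF.

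TXNIP (chromosome 4, 99348589 to 99351760) was at 3.67, 7.59 and 3.77 CPM in the control libraries. It was at 0.572, 0.936 and 0.788 CPM in OIM and at 1.23, 1.36 and 0.923 CPM in bFGF. Every control library lay above every treated library, control replicate 2 was the highest by far, and the OIM and bFGF libraries overlapped. The means were 5.01 ± 2.24, 0.765 ± 0.183 and 1.17 ± 0.226 CPM (SD, n = 3). TXNIP was not abundant, with 200 to 460 counts per control library, 31 to 61 in OIM and 48 to 71 in bFGF.

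Against control, TXNIP in OIM had a log2 fold change of -2.70 (SE 0.29), a 6.49-fold lower level, and stood 4th from the lowest among all genes tested. Without 1 library at a time this value ran from -2.88 to -2.27. In bFGF against control, a comparison that shares the control libraries, TXNIP fell by 2.09 on the log2 scale (SE 0.28, adjusted p = 1.29e-06, edgeR). TXNIP was chosen on its control and OIM values, so nothing is read from its p-values in the bFGF comparisons, which use them again. In bFGF against OIM, which shares the OIM libraries, its log2 fold change was 0.60 (SE 0.31) and was not called (adjusted p = 0.0957, edgeR). That call turned on 1 library, since without OIM replicate 2 the value was 0.80 (adjusted p = 0.0342, edgeR), and on scaling, since library totals alone gave 0.82 (adjusted p = 0.0231, edgeR). The value was above 0 in all of these fits, and TXNIP was the single gene of the 10 with overlapping OIM and bFGF libraries. Its bFGF libraries all lay above those of OIM with library totals alone.

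ARRDC4 (chromosome 7, 81656760 to 81669584, minus strand), the alpha-arrestin whose known role is closest to that of TXNIP, followed another order. It was at 79.2, 99.4 and 74.8 CPM in control, at 43.0, 54.4 and 48.2 CPM in OIM and at 8.88, 7.61 and 8.20 CPM in bFGF. The groups did not overlap, and they went down from control to OIM to bFGF. In OIM against control its log2 fold change was -0.80 (SE 0.089), a 1.74-fold lower level. It fell 5.91-fold from OIM to bFGF (log2 fold change -2.56, SE 0.10, adjusted p = 2.65e-14, edgeR) and 10.3-fold from control to bFGF (-3.36, SE 0.10, adjusted p = 3.72e-16, edgeR). A non-coding gene, LOC106504490, spans ARRDC4 on the opposite strand. Its row for the transcript that lies there had 0 to 3.69 estimated counts per library, against 396 or more for ARRDC4.

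ARRDC3 (chromosome 2, 98430451 to 98444835, minus strand), an alpha-arrestin known for its part in turning over adrenergic receptors, was the most abundant of the 10 genes. It was at 168, 168 and 153 CPM in control, 133, 139 and 135 CPM in OIM and 125, 119 and 115 CPM in bFGF. These groups did not overlap either, but the steps were small. The log2 fold change was -0.27 (SE 0.044) in OIM against control and -0.45 (SE 0.044, adjusted p = 1.69e-08, edgeR) in bFGF against control, which did not reach the limit of 0.5. In bFGF against OIM it was -0.18 (SE 0.044, adjusted p = 0.00110, edgeR), not called, and it turned to 0.039 when library totals alone were used for scaling, where the OIM and bFGF libraries overlapped.

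MLXIP (chromosome 14, 30575098 to 30646275, minus strand), which encodes MondoA, was at 68.4, 73.2 and 74.1 CPM in control. It was at 61.1, 61.2 and 65.5 CPM in OIM and at 47.2, 49.8 and 49.8 CPM in bFGF, again without overlap. Its log2 fold change was -0.20 (SE 0.048) in OIM against control and -0.36 (SE 0.048, adjusted p = 2.02e-06, edgeR) in bFGF against OIM, which is under the limit. In bFGF against control it fell by 0.56 (SE 0.048, adjusted p = 2.87e-09, edgeR), a call that was lost with library totals alone, at -0.33.

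IRS1 (chromosome 15, 128245846 to 128307321, minus strand) was the single gene of the 10 whose OIM libraries all lay above the control libraries. It was at 44.2, 46.7 and 46.8 CPM in control, 55.0, 51.3 and 53.1 CPM in OIM and 39.5, 36.8 and 40.9 CPM in bFGF. The OIM libraries were the highest and the bFGF libraries the lowest, with no overlap after TMM. The control and bFGF libraries overlapped with library totals alone. The log2 fold change was 0.21 (SE 0.052) in OIM against control, -0.44 (SE 0.053, adjusted p = 3.17e-07, edgeR) in bFGF against OIM and -0.23 (SE 0.053, adjusted p = 0.000646, edgeR) in bFGF against control. None of these reached 0.5. With library totals alone the value in bFGF against control was -0.0065 (adjusted p = 0.919, edgeR).

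IRS2 (chromosome 11, 76626158 to 76654639, minus strand), the second of these adaptors, was at 35.4, 37.5 and 33.2 CPM in control and at 32.3, 31.4 and 32.0 CPM in OIM. In bFGF it was at 9.02, 9.19 and 6.73 CPM. The control and OIM libraries lay close together, with all of OIM just below control, and the bFGF libraries were far below both. The log2 fold change was -0.15 (SE 0.081) in OIM against control. IRS2 fell 3.83-fold from OIM to bFGF (log2 fold change -1.94, SE 0.090, adjusted p = 1.94e-13, edgeR) and 4.25-fold from control to bFGF (log2 fold change -2.09, SE 0.090, adjusted p = 5.05e-14, edgeR).

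PIK3IP1 (chromosome 14, 48040848 to 48051660, minus strand), the PI3-kinase inhibitor, was at 29.1, 30.2 and 31.0 CPM in control, 29.9, 25.8 and 28.7 CPM in OIM and 11.9, 13.5 and 11.3 CPM in bFGF. Control and OIM overlapped, and bFGF lay below both. Its log2 fold change was -0.10 (SE 0.073) in OIM against control. It fell 2.30-fold from OIM to bFGF (log2 fold change -1.20, SE 0.078, adjusted p = 3.39e-11, edgeR).

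FOXO1 (chromosome 11, 15317222 to 15410059, minus strand) was at 65.7, 67.4 and 70.1 CPM in control and at 75.7, 64.8 and 71.2 CPM in OIM, which overlapped. In bFGF it was at 36.4, 35.0 and 32.5 CPM, below every other library. The log2 fold change was 0.058 (SE 0.056) in OIM against control. FOXO1 fell 2.03-fold from OIM to bFGF (log2 fold change -1.02, SE 0.058, adjusted p = 4.18e-12, edgeR).

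FOXO3 (chromosome 1, 74626673 to 74760323) was at 123, 128 and 123 CPM in control, 130, 119 and 126 CPM in OIM and 47.7, 52.2 and 46.2 CPM in bFGF. Control and OIM again overlapped, with a log2 fold change of 0.0078 (SE 0.046) between them. FOXO3 fell 2.57-fold from OIM to bFGF (log2 fold change -1.36, SE 0.049, adjusted p = 3.27e-15, edgeR).

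The circRNA counts of the table held 1 circRNA within FOXO3 and none within the other 9 genes. It spans 1436 bases (chr1:74737037-74738472, plus strand of Sscrofa11.1), and both ends lie at exon boundaries. Its back-splice junction is shown because it is what such reads identify, with 20 bases before the junction in lower case and 20 after it in capitals.
FOXO3 circRNA junction: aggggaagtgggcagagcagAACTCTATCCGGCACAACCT
It had 7, 26 and 6 counts in the control libraries, 9, 8 and 4 in OIM and 0, 0 and 2 in bFGF. The bFGF libraries were the lowest, and control replicate 2 held most of the control counts. The 39, 21 and 2 counts per group stood beside 21763, 22018 and 7673 counts of the FOXO3 gene. That is 17.9, 9.54 and 2.61 circRNA counts per 10000 gene counts, with no test made on counts this low. Without control replicate 2 the control value was 9.27, close to that of OIM, and both counts in bFGF came from replicate 3.

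KLF15 (chromosome 7, 53877813 to 53890558, minus strand) was at 9.17, 7.87 and 8.34 CPM in control, 8.54, 8.98 and 8.89 CPM in OIM and 2.00, 2.44 and 1.64 CPM in bFGF. The control and OIM libraries overlapped, and bFGF lay below both. Its log2 fold change was 0.059 (SE 0.12) in OIM against control. It fell 4.35-fold from OIM to bFGF (log2 fold change -2.12, SE 0.14, adjusted p = 3.47e-11, edgeR).

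**Figure D2:**
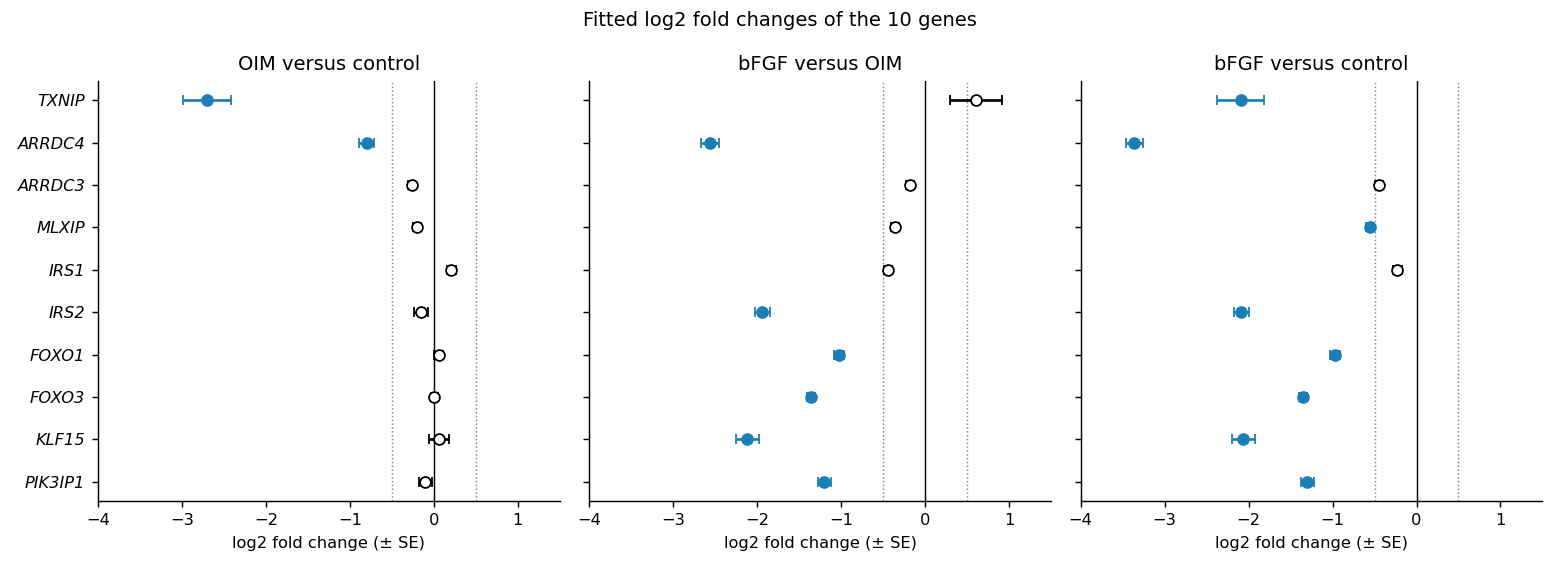
Fitted log2 fold change (horizontal axes) with its SE for the 10 genes in OIM versus control, bFGF versus OIM and bFGF versus control. Filled points pass both limits of a call, and dotted lines mark 0.5 in either direction. TXNIP was chosen on OIM versus control, so the values there are a description and the filling is not read as a test result. TXNIP is the farthest to the left in OIM versus control. In bFGF versus control it lies beside IRS2 and KLF15, with ARRDC4 farther to the left. In bFGF versus OIM TXNIP is at 0.60, and ARRDC3 turned there from -0.18 to 0.039 with library totals alone.

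Beside TXNIP, ARRDC4 was lower in OIM than in control by more than 0.5 on the log2 scale, and the other 8 genes differed by at most 0.27. Over the 10 genes, 2 (TXNIP and ARRDC4) passed the limits of a call as lower in OIM than in control and 0 as higher, where 0.864% and 1.49% of all genes did, but the 10 genes were chosen with this contrast in view and nothing is read from that count. Of the 10 genes, 5 had all OIM libraries below all control libraries, as 14.2% of all genes had, 1 had them all above and 4 overlapped. The share of all genes with them all above was not worked out. TXNIP is among the 5, and nothing is read from these counts either. The median log2 fold change was -0.12, or -0.099 without TXNIP, beside -0.0019 over all genes tested.

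The comparison of bFGF with OIM gave a wider change. Of the 10 genes, 6 (ARRDC4, IRS2, FOXO1, FOXO3, KLF15 and PIK3IP1) were called lower and 0 higher, where 18.4% of all genes were called lower and 17.7% higher. In 9 of the 10, all but TXNIP, every bFGF library lay below every OIM library, as in 35.8% of all genes. This held for 8 of the 10, and for 23.1% of all genes, with library totals alone. The median log2 fold change of the 10 was -1.11, beside -0.0029 over all genes. Against control, 8 of the 10 genes were called lower in bFGF and 0 higher, beside 20.0% and 18.9% of all genes. TXNIP is among the 8, through the control values on which it was chosen. ARRDC3 and IRS1 were not called, although all 10 genes had every bFGF library below every control library, as 37.3% of all genes had. With library totals alone 9 of the 10 had this order, all but IRS1, beside 24.3% of all genes. FOXO1, FOXO3, KLF15 and PIK3IP1 had log2 fold changes of -0.97, -1.35, -2.06 and -1.30 in that comparison (adjusted p from 2.92e-15 to 4.81e-11, edgeR). Each of the 6 calls in bFGF against OIM was also made in every alternative fit and without any 1 library.

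Ratios of counts within a library do not depend on how libraries are scaled. TXNIP had 4.63 to 7.63 counts per 100 counts of ARRDC4 in the control libraries, 1.33 to 1.72 in OIM and 11.3 to 17.9 in bFGF. The groups did not overlap, so that relative to ARRDC4, TXNIP was lowest in OIM and highest in bFGF. ARRDC4 had 47.0 to 59.3 counts per 100 counts of ARRDC3 in control, 32.3 to 39.2 in OIM and 6.38 to 7.14 in bFGF. The balance of the insulin receptor adaptors moved too, with 71.1 to 80.2 IRS2 counts per 100 IRS1 counts in control, 58.8 to 61.3 in OIM and 16.5 to 24.9 in bFGF. FOXO3 moved more than FOXO1, with 175 to 189, 172 to 184 and 131 to 149 counts per 100 of FOXO1, where bFGF alone lay apart. KLF15 had 11.7 to 14.0, 11.3 to 13.9 and 5.03 to 6.97 counts per 100 of FOXO1, with bFGF again apart from overlapping control and OIM libraries. These ratios carry no test.

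**Figure D3:**
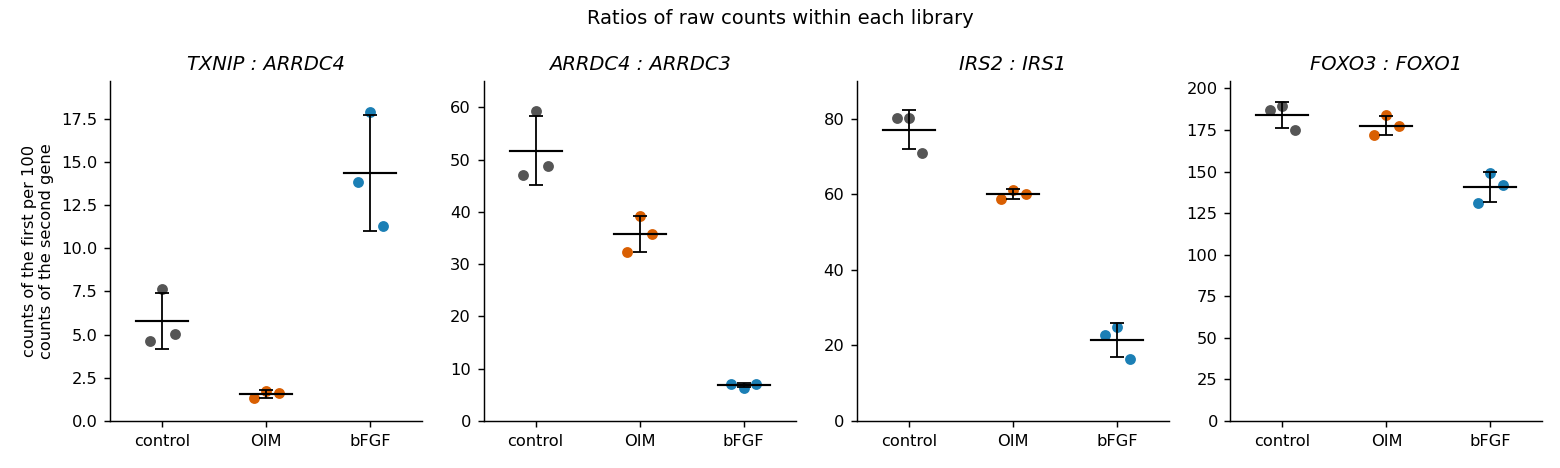
Counts of the first gene per 100 counts of the second in each library (vertical axes, linear and starting at 0), with the mean and SD of 3 libraries per group. TXNIP per ARRDC4 was lowest in OIM (1.33 to 1.72) and highest in bFGF (11.3 to 17.9), whereas the other 3 ratios plotted were lowest in bFGF.

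Levels of different genes were compared per kilobase of annotated exon. In control cells ARRDC3 stood first at 36.5 ± 1.93 CPM per kilobase (SD, n = 3), followed by FOXO3 at 16.5 ± 0.362. FOXO1, ARRDC4 and PIK3IP1 came next, at 12.6, 11.2 and 10.9, and neighbours in this order overlapped. MLXIP, IRS1 and IRS2 followed at 9.34, 7.22 and 5.46, and TXNIP (2.70 ± 1.21) and KLF15 (1.65 ± 0.129) came last. In OIM TXNIP moved to the last place at 0.413 ± 0.0988 CPM per kilobase, and ARRDC4 moved down to the seventh place at 6.44 ± 0.757. MLXIP and IRS1, which did not overlap in control, were at 8.13 and 8.36 in OIM, with IRS1 the higher and the libraries overlapping. In bFGF, FOXO3, FOXO1, MLXIP and IRS1 lay together between 6.15 and 6.44 CPM per kilobase with overlapping neighbours, below ARRDC3 at 26.8 ± 1.10. IRS2 (1.28) and ARRDC4 (1.09) overlapped, TXNIP was at 0.633 ± 0.122 and KLF15 was last at 0.395 ± 0.0788.

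Wider lists of the same pathways, which leave out the 10 genes, were described by their calls, and values in parentheses are log2 fold changes. Among 29 tested genes of a list of FOXO4, the FOXO deacetylase SIRT1 and known FOXO targets, 2 rose and 18 fell in bFGF against OIM, where 17.7% and 18.4% of all genes did, with a median log2 fold change of -0.74. With library totals alone 5 rose and 15 fell, with a median of -0.52, and of all genes 27.3% rose and 12.4% fell. FOXO4 itself fell (-1.76). The genes that fell most were TNFSF10 (-4.60), which encodes the death ligand TRAIL, BNIP3 (-3.43), a mitophagy receptor, and FBXO32 (-2.32), which encodes the muscle atrophy ligase atrogin-1. BCL2L11 (0.95), which encodes the pro-apoptotic BIM, and CITED2 (0.50) rose. CITED2 lay at the limit of a call, which it missed in 3 of 9 fits with 1 library left out (without OIM replicate 2, bFGF replicate 2 or bFGF replicate 3, where the value was 0.48 at the lowest) and in 4 of 8 other fits. In OIM against control 2 of the 29 were past the limits as lower and 0 as higher, beside 0.864% and 1.49% of all genes, namely ERBB3 (-0.70), a receptor of neuregulins, and SOD2 (-0.66), the mitochondrial superoxide dismutase. SOD2 also fell from OIM to bFGF (-1.59).

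**Figure D4:**
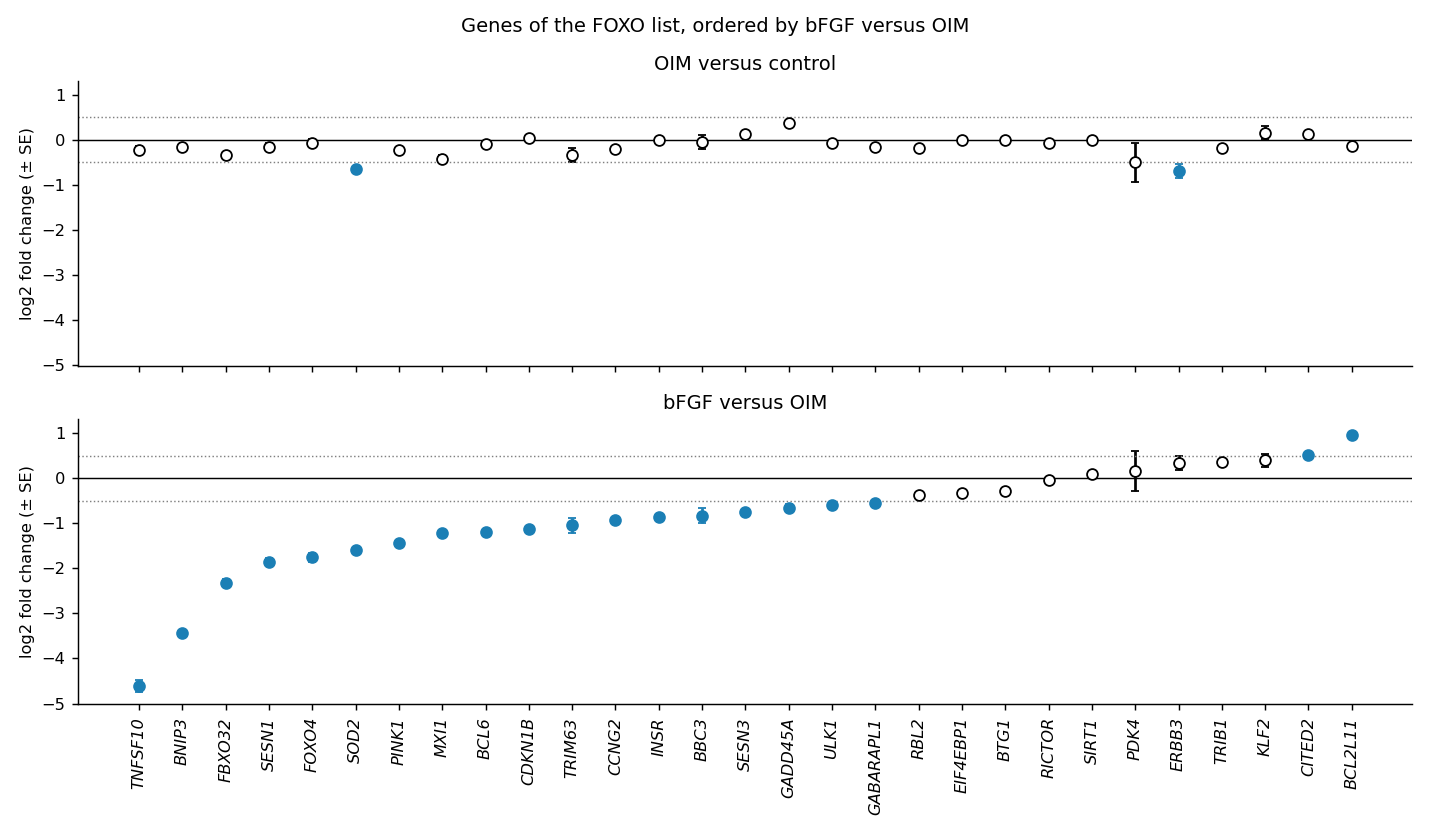
Log2 fold changes with their SE (vertical axes) for the 29 tested genes of the FOXO list in OIM versus control and in bFGF versus OIM, ordered by the latter. Filled points pass the limits of a call, which are dotted at 0.5 in either direction. In bFGF versus OIM 18 genes are called lower and 2 higher, where 18.4% and 17.7% of all genes are. With library totals alone the counts are 15 and 5, where 12.4% and 27.3% of all genes are. In OIM versus control 2 are past the limits as lower and 0 as higher, where 0.864% and 1.49% of all genes are.

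The list of MondoA partners and glucose entry had 17 tested genes, and in bFGF against OIM 1 rose and 8 fell, beside 17.7% and 18.4% of all genes (median -0.57), or 2 and 7 with library totals alone, beside 27.3% and 12.4%. SLC2A1, the glucose transporter that TXNIP and ARRDC4 are known to remove from the surface, fell from 250 to 262 CPM in OIM to 65.4 to 71.8 CPM in bFGF (-1.89). HK2 (-1.59), which phosphorylates glucose, and PFKFB3 (-1.42), an activator of glycolysis, also fell. MXD3 (1.12), a repressor of the MAX network, rose. In OIM against control 0 of the 17 were past the limits, where 0.864% of all genes were lower and 1.49% higher. A list this short was thus near the background. SLC2A1 had a log2 fold change of -0.017 there.

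Of 32 tested genes from the insulin receptor to AKT, 2 rose and 7 fell in bFGF against OIM, with a median of -0.091. The shares of all genes were 17.7% and 18.4%, so the 7 of 32 that fell, or 21.9%, were near the background. With library totals alone the median turned to 0.13, and 4 rose and 4 fell, where 27.3% and 12.4% of all genes did. The genes that fell most were GRB14 (-2.12), an inhibitor of the insulin receptor, PIK3R1 (-1.67), a regulatory subunit of PI3-kinase, and the adaptor GAB1 (-1.07). SGK1 (1.30), a kinase related to AKT, and PIK3CB (0.59), a catalytic subunit of PI3-kinase, rose. None of the 32 was past the limits in OIM against control, where 0.864% of all genes were lower and 1.49% higher. A list this short was thus near the background.

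Among 13 tested genes of the other alpha-arrestins, the thioredoxin system and arrestin-binding ligases, 4 rose and 4 fell in bFGF against OIM, beside 17.7% and 18.4% of all genes (median 0.33), or 7 and 3 with library totals alone, beside 27.3% and 12.4%. NLRP3, the inflammasome sensor that TXNIP is known to bind, rose from 3.52 to 4.50 CPM in OIM to 27.6 to 28.8 CPM in bFGF (2.85). It was also the single gene of this list past the limits in OIM against control, at 0.57, where 1.49% of all genes were higher and 0.864% lower. It was under those limits, at 0.45, without OIM replicate 2, where a different gene of the list passed. Without control replicate 2 the list had 2 genes past the limits. TXN (0.58), which encodes thioredoxin, and ARRB2 (0.81), a beta-arrestin, also rose. TXNRD3 (-1.49), a thioredoxin reductase, and ARRB1 (-1.07), the other beta-arrestin, fell. The ubiquitin ligase WWP2 fell from 140 to 157 CPM in OIM to 73.4 to 76.1 CPM in bFGF.

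KLF15 was set beside 10 genes of the glucocorticoid receptor and its known targets, of which 2 rose and 7 fell in bFGF against OIM, beside 17.7% and 18.4% of all genes (median -0.79), or 2 and 6 with library totals alone, beside 27.3% and 12.4%. The genes that fell most were ZBTB16 (-3.34), a strongly glucocorticoid-induced factor, HSD11B1 (-2.18), which makes active glucocorticoid in the cell, and TSC22D3 (-1.11), which encodes GILZ. FKBP5 (1.22), another classic target, rose, as did SGK1 (1.30), which is also on the insulin list. None of the 10 was past the limits in OIM against control, where 0.864% of all genes were lower and 1.49% higher. A list this short was thus near the background.

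Genes with a profile like that of TXNIP were sought over the 9 libraries, by the root mean square difference of log2 CPM centred on each gene, among 13387 genes. The smallest differences were those of PLEK (0.53), S100A9 (0.58), GUCY2D (0.65), TMEM100 (0.67) and PI15 (0.68). The first 3 averaged 6.83 to 7.83 counts over the treated libraries and reached the limit of a mean of 10 counts over all 9 only through the control libraries, where TXNIP was high too, so that nothing is read from their likeness. PLEK was at 0.318 to 0.478 CPM in control, 0.0738 to 0.158 CPM in OIM and 0.135 to 0.205 CPM in bFGF. TMEM100 had 9 to 64 counts per library. PI15 did not depend on that limit, at 34.0 to 41.1 CPM in control, 10.8 to 20.3 CPM in OIM and 18.3 to 25.4 CPM in bFGF. Of the other 9 genes of the pathways, the nearest to TXNIP was ARRDC3, at place 484, followed by MLXIP at place 682. ARRDC4 and KLF15 lay farthest, at places 10563 and 10565, but with profiles also scaled to equal spread ARRDC4 was at place 1405 and KLF15 at place 4268, ARRDC3 was still the nearest, at place 189, and IRS1 was the farthest, at place 8577. The libraries fall into 3 groups, so the 9 points are not independent, and the likeness is a description with no test. Of the 5 nearest genes, only PLEK was still among the 5 nearest when profiles were also scaled to equal spread.

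**Figure D5:**
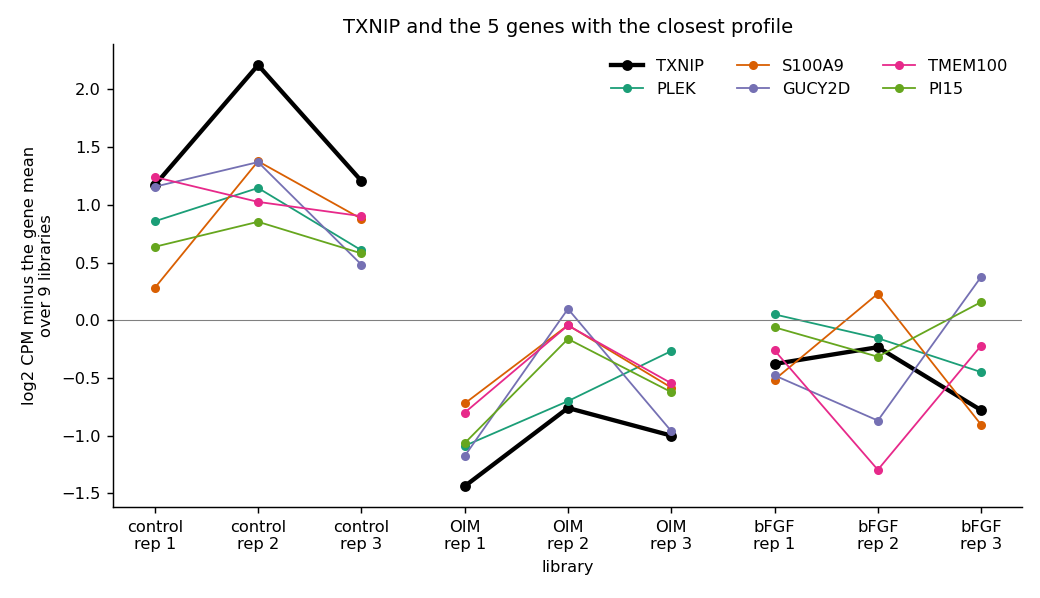
Log2 CPM of TXNIP and of the 5 genes nearest to it, each minus its own mean over the 9 libraries (vertical axis), by library (horizontal axis). All 6 genes are above their mean in the 3 control libraries. TXNIP is below its mean in every OIM and bFGF library.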

How the data were processed

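Gene counts were deposited by the authors for 9 libraries, 3 each of control, OIM and bFGF, in 1 table with 19535 genes, 9888 non-coding transcripts and 6179 circRNAs. The authors deposited expected counts without normalization: gene and circRNA rows hold whole numbers, and the non-coding rows hold estimated counts, of which 44.6% are not whole. It also has 19 columns with no name or value, which were not used. The study's methods name Cutadapt, STAR and susScr11 with poly-A selection, whereas the submitters' processing notes name Trimmomatic, HISAT2, StringTie and Sscrofa11.1, and the labels describe a library kit with ribosomal RNA removal. Which of these made the table, and whether counting used strand, is not given in the sources used here, so overlapping or near-identical genes can share reads. Another 25 symbols read as dates, none of them used here.

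In edgeR 4.0.16 (R 4.3.3), filterByExpr kept 13662 genes, TMM set the library scaling, and a quasi-likelihood fit of the 3 groups left 6 residual degrees of freedom. The Benjamini-Hochberg adjustment ran over all 13662. Dividing the absolute log2 fold change by the root of its F statistic gave the SE. The script was tested on simulated data. DESeq2 1.42.0, other scalings and filters, 2-group fits, a replicate block and leaving out each library were alternatives. Ratios within a library and the scaling without the 50 most abundant genes were added after the data were seen. Depth was 46773376 to 67371523 counts per library, so counting error among the 10 genes matters mainly for TXNIP and KLF15. It also matters for the circRNA, for GRB14 (18 to 22 counts per bFGF library) and for ZBTB16 (24 to 39). The genes nearest to TXNIP, other than PI15, had few counts too.

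The 10 genes and the pathway lists were chosen with earlier results of these data known. Named from each list were up to 3 genes per direction with the largest change in bFGF against OIM, and up to 2 in OIM against control, among calls whose groups did not overlap and whose higher group averaged 10 counts or more, and the 5 genes nearest to TXNIP. For the likeness to TXNIP, the prior count of log2 CPM was 2. Promoters, exons and positions come from Sscrofa11.1, the build that the submitters' processing notes name, and its RefSeq annotation, and all 10 symbols matched. A planned comparison of protein sequences was not made.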

Additional observations from a re-analysis of the deposited data

How the results depend on the processing

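Results that hold under the settings tried are counted first. Of 160 values of the 10 genes in the bFGF comparisons under alternatives other than leaving out a library, 156 kept their direction and side of the threshold, and 179 of 180 did so with 1 library left out. Library totals alone gave 3733 genes higher in bFGF against OIM and 3931 against control, 68.8% and 68.1% of calls in place of 49.0% and 48.5%. TXNIP in bFGF against OIM then passed at 0.82, ARRDC3 turned to 0.039 (adjusted p = 0.453, edgeR) and MLXIP in bFGF against control was no longer called at -0.33. By adjusted p alone, OIM and control differed in 1853 genes (1051 higher, 802 lower), bFGF and OIM in 9203 (4620 and 4583) and bFGF and control in 9590 (4709 and 4881), one condition being dropped. With 1 library left out, TXNIP in bFGF against OIM ran from 0.44 to 0.80 and was called in 1 of 9 fits, without OIM replicate 2; its adjusted p over the other alternatives ran from 0.0231 to 0.106 (edgeR and DESeq2). With profiles scaled to equal spread, 1 of the 5 genes nearest to TXNIP was kept.

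The replicate numbers did not pair the libraries: over 9 pairs with the same number the deviations from group means correlated from -0.032 to 0.0035, against -0.026 to 0.0534 for other numbers, and 0 of 9 libraries correlated best with their own number. With the replicate block 309, 4917 and 5285 genes were called in the 3 comparisons in place of 321, 4939 and 5323, and TXNIP in bFGF against OIM passed at 0.63 (adjusted p = 0.0392, edgeR). The cause of each change was not tested. Depth limits TXNIP, with 31 to 71 counts in treated libraries, and the FOXO3 circRNA, with 0 to 26. Among the genes named from the lists it also limits GRB14, with 18 to 22 counts per bFGF library, and ZBTB16, with 24 to 39.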
